A study of Mus musculus with 4 samples.

Results

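Of 78912 ATAC-Seq peaks called in GFP- (non-endothelial) heart nuclei, 16402 were distal peaks with no counterpart in GFP+ (endothelial) nuclei. A peak was counted here when no GFP+ peak overlapped it by 1 bp, when its summit lay more than 1000 and at most 100000 bp from the nearest protein-coding transcript start, and when the summit was outside annotated exons. They are called GFP- only distal peaks below. Another 32579 GFP- peaks met the same position rule and overlapped a GFP+ peak (shared distal peaks), so that 33.5% of 48981 distal GFP- peaks were GFP- only. In the reverse direction, 6189 distal GFP+ peaks (15.7% of distal GFP+ peaks) overlapped no GFP- peak.

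The libraries came from whole hearts of male NuTRAP/Cdh5-Cre mice aged 8 to 12 weeks on a C57BL/6 background, with 2 replicate libraries of GFP- and 2 of GFP+ sorted nuclei. Every animal carried both alleles, no treatment is listed, and the sort kept single diploid nuclei. Because the *Cdh5* promoter drives the Cre, GFP marks nuclei of cells that express or once expressed this endothelial cadherin, and the GFP- sort holds every other nucleus of the heart as a mixture. The authors called 1 list of peaks per population from both replicates, so a peak's presence has no replicate check. Libraries were brought to an equal number of reads before that call, but the lists hold no read counts, so the reads behind each peak are unknown here, and a region open in few cells cannot be told apart from one that is weakly open in many.

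Distal accessible regions outside promoters are often enhancers, stretches of DNA where transcription factors bind and raise the activity of a gene that may lie far away. In the heart, fibroblasts make collagens and other matrix proteins, pericytes and smooth muscle cells surround the vessels, and cardiomyocytes contract. Factors of the basic helix-loop-helix family bind E-boxes, the letters CANNTG, and the fibroblast and epicardial factor TCF21 belongs to this family. AP-1 is formed by FOS and JUN proteins, EBF factors act in mesenchymal and B cells, C/EBP factors in fat, myeloid and stromal cells, MEF2 factors in muscle, and CTCF organises chromatin loops.

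Some of the GFP- only distal peaks are shown first by their sequence, because the results on motif words turn on such windows. Each line gives a summit with 100 bases to either side on the plus strand of GRCm38 (mm10), named by the nearest gene. Capitals mark words on either strand. They are the E-box CAGCTG and the E-box CAGATG, which reads CATCTG on the other strand. The AP-1 word is TGAGTCA, the EBF word CCCNNGGGA and the C/EBP word TTGCNNAA, and a MEF2 word would also be marked. *Col15a1* has the largest of all these peaks, *Dpt*, *Notch3*, *Itga8* and *Lmod2* the largest of those considered for printing near a gene of the fibroblast, pericyte, smooth muscle and cardiomyocyte lists, and *Ccng2*, *Medag* and *Errfi1* the largest that hold CAGCTG together with C/EBP, EBF and AP-1. The pericyte gene *Pdgfrb* had a larger peak (rank 87.6) than *Notch3* (rank 76.0), and its window is not shown. *Ccng2*, *Medag* and *Errfi1* were chosen after the word counts were known. *Lmod2* is shown as a window with none of the words.
Col15a1, chr4:47178160-47178360, E-box CAGATG and AP-1: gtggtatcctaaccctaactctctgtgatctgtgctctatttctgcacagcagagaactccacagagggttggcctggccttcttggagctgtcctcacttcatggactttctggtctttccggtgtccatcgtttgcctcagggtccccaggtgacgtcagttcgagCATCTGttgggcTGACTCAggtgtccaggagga
Ccng2, chr5:93282590-93282790, C/EBP and a pair of E-boxes CAGCTG: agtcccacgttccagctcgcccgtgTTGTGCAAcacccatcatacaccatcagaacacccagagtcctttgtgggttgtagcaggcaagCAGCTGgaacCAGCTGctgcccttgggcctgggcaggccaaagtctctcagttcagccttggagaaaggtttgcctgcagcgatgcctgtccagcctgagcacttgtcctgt
Dpt, chr1:164798643-164798843, EBF, C/EBP and AP-1: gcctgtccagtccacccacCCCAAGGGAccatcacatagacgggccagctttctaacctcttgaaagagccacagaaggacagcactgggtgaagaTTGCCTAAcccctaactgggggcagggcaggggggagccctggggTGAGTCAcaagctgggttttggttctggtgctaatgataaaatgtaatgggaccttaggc
Medag, chr5:149379306-149379506, EBF, E-box CAGCTG and E-box CAGATG: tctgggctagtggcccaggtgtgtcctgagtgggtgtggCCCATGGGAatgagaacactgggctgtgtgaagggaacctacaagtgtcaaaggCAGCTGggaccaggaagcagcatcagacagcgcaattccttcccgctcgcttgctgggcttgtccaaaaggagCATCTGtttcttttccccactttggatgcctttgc
Errfi1, chr4:150798827-150799027, E-box CAGCTG and AP-1: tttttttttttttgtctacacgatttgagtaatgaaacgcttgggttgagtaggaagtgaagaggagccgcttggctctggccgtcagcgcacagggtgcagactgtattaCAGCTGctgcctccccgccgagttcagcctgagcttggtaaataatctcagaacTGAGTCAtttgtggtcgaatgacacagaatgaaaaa
Notch3, chr17:32173345-32173545, overlapping EBF words and E-box CAGCTG: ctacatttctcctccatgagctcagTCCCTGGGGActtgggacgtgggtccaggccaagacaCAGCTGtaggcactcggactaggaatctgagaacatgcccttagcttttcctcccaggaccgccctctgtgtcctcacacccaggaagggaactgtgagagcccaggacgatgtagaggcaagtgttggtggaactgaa
Itga8, chr2:12318044-12318244, E-box CAGATG and a pair of C/EBP words: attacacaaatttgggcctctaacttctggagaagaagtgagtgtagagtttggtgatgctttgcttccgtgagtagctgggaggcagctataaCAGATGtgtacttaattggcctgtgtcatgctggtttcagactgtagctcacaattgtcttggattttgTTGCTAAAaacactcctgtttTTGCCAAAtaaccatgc
Lmod2, chr6:24583539-24583739, none of the words: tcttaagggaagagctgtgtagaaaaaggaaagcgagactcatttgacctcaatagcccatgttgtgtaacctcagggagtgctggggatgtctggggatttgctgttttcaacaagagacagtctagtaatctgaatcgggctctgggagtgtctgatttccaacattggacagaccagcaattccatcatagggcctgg
The *Dpt* window lies in an intron of that gene, which encodes the matrix protein dermatopontin. The other windows were outside protein-coding genes, and that of *Medag* was in a gene of another kind.

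GFP- only distal peaks were small, and since calling a peak in each list chose them, their size is a description. Their median area was 385 (95% interval 380 to 389), against 816 (805 to 825) for shared distal peaks. Area is the peak caller's measure over a whole peak, and the smallest areas in these classes were 200.01 and 200.02. By percentile rank of area within the GFP- list, where 100 is the largest peak, the medians were 24.8 and 53.0. The median length was 347 bp against 466 bp, and the median -log10 p-value at the summit was 4.38 against 5.93. GFP+ only distal peaks were also small in their own list, with a median area of 309, rank of 17.4 and length of 336 bp. The GFP- list was divided by rank into 4 area classes, from class 1 (smallest areas) to class 4 (largest). Of distal GFP- peaks in class 1, 59.4% were GFP- only, and in classes 2 to 4 it was 33.0%, 20.9% and 9.06%. Because area and class are tied in this way, several contents of the peaks are also given within area classes.

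At the limits of the rule, the nearest peak that was taken lay just past 1000 bp from a start and the nearest left out at 1000 bp, with areas of 292 and 244. The farthest taken lay at 99992 bp and the first beyond the limit at 100092 bp. The smallest gap between a GFP- only distal peak and a GFP+ peak was 6 bp, and 73 peaks (0.445%) had a GFP+ peak within 100 bp. The median gap was 6202.5 bp, so for most peaks no endothelial peak was close by, although 14.6% had one within 1000 bp.

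By position, GFP- only distal peaks resembled shared ones with a shift away from promoters. In introns of protein-coding genes lay 58.3% of them (95% Wilson interval 57.5 to 59.0%), against 59.2% (58.7 to 59.7%) of shared distal peaks, a difference of -0.94 percentage points (Newcombe interval -1.87 to -0.019) that changed sign when sharing required an overlap of 50% of both peaks. The median distance from a start was 22267 bp (21695 to 22808) against 18131 bp (17862 to 18445). In area class 4 it was 26836 bp against 17874 bp, so the greater distance was not confined to small peaks. Over 50000 bp from any start lay 22.3% of GFP- only and 17.2% of shared distal peaks. The median GC content of the windows of 100 bases to either side of the summit was 49.8% against 51.7%, and 50.2% in GFP+ only distal peaks. For 85.0% of the intronic peaks the nearest start belonged to the gene whose intron held them. These intervals cover counting error only and treat peaks as independent, although neighbouring peaks share a locus.

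Chromosome X stood apart among the 20 chromosomes. There, 279 of 658 distal GFP- peaks were GFP- only, which is 42.4% (38.7 to 46.2%), against 33.4% (32.9 to 33.8%) on the autosomes, which ranged from 30.1% to 35.6%. Distal peaks on X were smaller, with a median rank of 32.8 against 44.1 on autosomes. Within area classes 1 to 4, X minus autosomes was 4.42 points (-1.75 to 10.2), 7.66 (1.16 to 14.5), 5.67 (-1.25 to 14.0) and, for the largest peaks, -7.75 (-9.07 to -1.65). The X excess of the pooled value was thus smaller within classes 1 to 3, and for the largest peaks the share on X was lower, at 1 of 72.

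For most GFP- only distal peaks the nearest gene had a promoter peak in both populations, as for most peaks of the other classes. A peak within 250 bp of a transcript start of the nearest gene was present in both lists for 77.7% of GFP- only distal peaks. It was only in GFP- for 6.16% (5.81 to 6.54%), only in GFP+ for 0.54% and in neither for 15.6%. A gene counted in both lists could have its GFP- and GFP+ peaks at different starts. A promoter peak in both lists was found for 81.8% of shared and 82.5% of GFP+ only distal peaks, and at 57.6% of all protein-coding genes. For shared distal peaks the GFP- only promoters made up 2.66% (2.49 to 2.84%), and for distal peaks found only in GFP+ they made up 1.53% (1.26 to 1.87%). Over all protein-coding genes they made up 2.96%.

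The nearest genes numbered 6704, which is 30.9% of 21728 protein-coding genes, and a nearest gene is an assignment by distance that says nothing of which gene a region acts on. Of these, 3271 genes had exactly 1 such peak, while 864 genes (3.98% of all) had at least 5, and these held 38.5% of the peaks. *Nav1*, which encodes a neuron navigator protein that binds microtubules, had the most, with 25 of its 32 distal GFP- peaks. The signalling gene *Smad3*, a transducer of TGF-beta, had 19 of 34, and *Rbpj*, the DNA-binding partner of Notch, had 19 of 24. Also among the 15 with most were *Cacna1c* (21 of 49), the L-type calcium channel, *Itpr1* (16 of 39), the inositol trisphosphate receptor, and *Ank2* (16 of 29), an ankyrin. The other 9 were *Arhgap26* (20 of 61), *Frmd4a* (18 of 44), *Daam1* (18 of 32), *Tns1* (18 of 68), *Fyn* (17 of 37), *Akap13* (17 of 35), *Svil* (16 of 40), *Irf2bp2* (16 of 30) and *Zbtb7c* (16 of 31). *Tns1* encodes tensin, which ties integrins to actin, *Svil* the actin-binding supervillin, *Daam1* a formin and *Fyn* a tyrosine kinase. All 15 had a promoter peak in both lists, as did 57.6% of all protein-coding genes.

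Counts per gene follow how many distal peaks a gene has, so the share that was GFP- only separates genes better. Of 1805 genes with at least 8 distal GFP- peaks, 14 had only GFP- only peaks and 93 had none. The 14 included the fibrillar collagen gene *Col3a1* (9 of 9), *Col6a2* (9 of 9), *Has2* (9 of 9), the main hyaluronan synthase of the developing heart, the scavenger receptor gene *Scara5* (12 of 12), the hedgehog coreceptor gene *Gas1* (9 of 9) and *Msc* (9 of 9), a basic helix-loop-helix factor. The other 8 were *Camk1d* (14 of 14), *Kcnip1* (11), *Pde1a* (10), *Icosl*, *Oaf*, *Dtx4*, *Tshz3* and *Thada* (8 each). At *Has2*, *Col3a1* and *Msc* the promoter peak was also present only in GFP-. At the other end stood genes with many distal peaks that were all shared: the potassium channel gene *Kcnh2* with 16, *Irx4*, a factor of ventricular muscle, with 14, and *Clic5*, with 14. The genes in this paragraph, chosen by their share after the values were known, describe the extremes and were not tested.

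The largest GFP- only distal peaks reached ranks of 92.2 to 94.3, so none was among the 5% of the list with the largest areas. The largest, at chr4:47178100-47179785, had an area of 5748 and lay 29901 bp upstream of *Col15a1*, a basement membrane collagen, with no GFP+ peak for 15657 bp. The second, of area 5672, lay 59868 bp upstream of *Wasf3*, and the third, of area 5589, lay 14376 bp downstream of the start of *Ccng2*, an unusual cyclin. A pair of the 10 largest flanked the start of *Heyl*, a Notch target, at 4388 bp downstream and 7266 bp upstream, with areas of 5396 and 4914. An intronic peak of *Fstl1*, a secreted follistatin-like protein, was the longest of all at 2884 bp. The other 4 were nearest to *Gm11444*, *Pabpn1l* (inside *Cbfa2t3*), *Grhl2* (inside *Ncald*) and *Cstad*, and the intronic ones among these show that the nearest start was not always that of the gene around the peak.

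Gene lists for the cell types of the heart divided clearly. Near the 12 genes of the fibroblast list, 78 of 100 distal GFP- peaks were GFP- only (78.0%, 68.9 to 85.0%), against the 33.5% over all genes. All 12 genes had at least 1, against 30.9% of all genes. Their median was 8.5 distal GFP- peaks, against 1 over all genes, which by itself raises that count. *Dcn*, the proteoglycan decorin, had 11 of 12, with no GFP+ only distal peak. The collagen I genes *Col1a2* and *Col1a1* had 10 of 11 and 10 of 16, and *Col3a1* had 9 of 9. *Tcf21* itself had 6 of 6, *Pdgfra*, the receptor that marks cardiac fibroblasts, had 4 of 5, and *Ddr2*, a collagen receptor, had 5 of 6. Promoters of 8 of the 12 genes had a peak only in GFP- nuclei, 3 in both and 1 in neither. Over all protein-coding genes these shares were 2.96%, 57.6% and 38.5%.

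**Figure D1:**
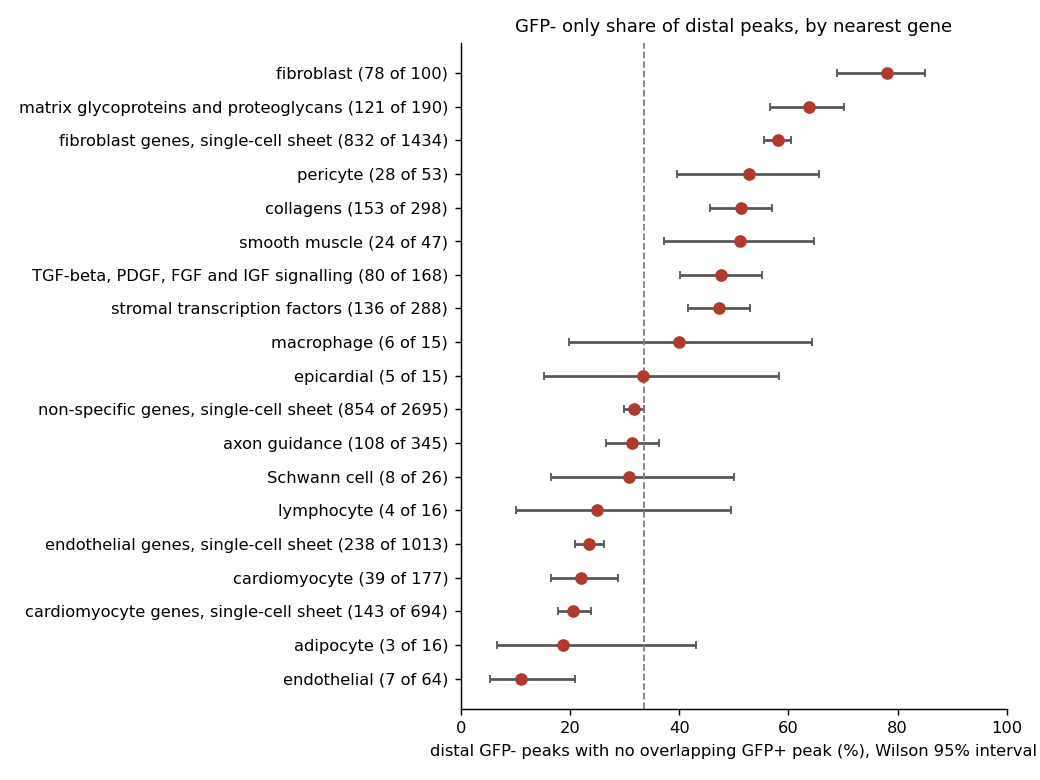
Share of distal GFP- peaks that were GFP- only (x axis, %) for each list of nearest genes (y axis, with the count of such peaks among all distal GFP- peaks). Points are shares, bars Wilson 95% intervals for counting error, and the dashed line marks 33.5% over all genes. The fibroblast list sits highest at 78.0% and the endothelial list lowest at 10.9%.

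The mural lists lay between fibroblasts and the whole. For pericytes, 28 of 53 distal peaks were GFP- only (52.8%, 39.7 to 65.6%), with *Pdgfrb*, the receptor that recruits pericytes, at 8 of 10, the potassium channel subunit genes *Kcnj8* and *Abcc9* at 6 of 10 and 5 of 11, and *Notch3* at 3 of 9. *Rgs5* and *Higd1b* had 3 of 3 and 2 of 2, *Cspg4* had 1 of 5, *Mcam* had 0 of 3 and *Vtn* had no distal peak. For smooth muscle the count was 24 of 47 (51.1%, 37.2 to 64.7%), but it rested on *Itga8*, an integrin, with 12 of 14, and *Mylk*, the myosin light chain kinase, with 9 of 18. *Myh11*, *Lmod1* and *Smtn* had 1 of 4, 1 of 2 and 1 of 5, while *Acta2*, *Tagln* and *Cnn1*, the classic contractile markers, had 0 of 2, 0 of 1 and 0 of 1.

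Cardiomyocyte genes had many distal peaks and few that were GFP- only, 39 of 177 (22.0%, 16.6 to 28.7%). *Ryr2*, the calcium release channel, had 8 of 23, *Actn2*, the Z-disc actinin, had 7 of 20, *Gata4* had 7 of 28 and the titin gene *Ttn* had 5 of 18. Few of the 39 were large. Among distal peaks above rank 50, only 4 of 92 near cardiomyocyte genes were GFP- only (4.35%), against 36 of 48 near fibroblast genes (75%) and 16.7% over all genes. The largest near *Ryr2*, *Actn2* and *Gata4* were at ranks 55.6, 59.0 and 53.8, and that near *Lmod2* was at 78.4. No cardiomyocyte promoter was GFP- only, which is close to the 2.96% over all protein-coding genes. A peak in both lists was present at 18 of 20, against 57.6% of all genes.

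The endothelial list had the lowest GFP- only share, but a low share alone cannot check the sort, because cardiomyocyte genes also had one. In the larger lists below, the cardiomyocyte share (20.6%) was under the endothelial share (23.5%). Near the endothelial list, 7 of 64 distal GFP- peaks were GFP- only (10.9%, 5.40 to 20.9%). These 7 lay near *Cdh5* (3), *Tek* (2), *Pecam1* (1) and *Erg* (1). Distal peaks found only in GFP+ numbered 65 near the 14 endothelial genes and 14 near the 20 cardiomyocyte genes. No endothelial promoter was GFP- only, while 4 of 14 were GFP+ only. The other 10 endothelial promoters, those of *Cdh5*, *Kdr* and *Flt1* among them, had a peak in both lists, so GFP- nuclei also showed open promoters at most of these genes. The part of endothelial nuclei left in the GFP- sort in this was not tested. Of the GFP- only distal peaks, one near *Cdh5* was large, at rank 82.6, and lay 78236 bp upstream of its start, and that near *Pecam1* was at rank 82.5.

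Immune, glial, epicardial and fat markers had few distal peaks, so their shares were imprecise. The macrophage list had 6 of 15, the lymphocyte list 4 of 16, the Schwann cell list 8 of 26 (7 of them at *Mbp*), the epicardial list 5 of 15 (3 at *Tbx18*) and the adipocyte list 3 of 16 (2 at *Lep*, which encodes leptin, and 1 at *Cebpa*). *F13a1*, a coagulation factor gene of tissue macrophages, had 2 of 2, while *C1qa*, *Cx3cr1* and *Mrc1* had 1 each. Among lymphocyte genes *Bcl11b* had 2 of 8, and *Cd4* and *Pax5* had 1 each. At the promoters of 10 of 12 macrophage and 9 of 10 lymphocyte genes neither list had a peak, against 38.5% of all protein-coding genes.

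By function, matrix genes led. The function lists share genes with the cell type lists, and the peaks of such genes are counted in both. Shared genes include *Dcn*, *Fbln1* and *Lum*, the collagen genes *Col1a1*, *Col1a2* and *Col3a1*, and *Tcf21*, *Pdgfra* and *Pdgfrb*. Near matrix glycoprotein and proteoglycan genes 121 of 190 distal GFP- peaks were GFP- only (63.7%, 56.6 to 70.2%). At least 1 was found at 22 of 25 genes, against 30.9% of all genes, at a median of 6 distal GFP- peaks per gene against 1. *Ltbp1*, which stores TGF-beta in the matrix, had 13 of 24, the matricellular *Thbs2* had 12 of 13 and the fibulin gene *Fbln2* had 11 of 20. Among 44 collagen genes the count was 153 of 298 (51.3%, 45.7 to 57%). *Col5a1* had 15 of 25, *Col14a1* had 14 of 18 and *Col15a1* had 13 of 23, while *Col4a1*, a basement membrane collagen that endothelium also makes, had 13 of 47.

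Regulators of stroma were GFP- only more often than all genes. Stromal transcription factor genes had 136 of 288 (47.2%, 41.5 to 53.0%). At least 1 was found at 28 of 30 genes, against 30.9% of all genes. These genes had a median of 8.5 distal GFP- peaks, against 1 over all genes, which by itself raises that count. *Ebf2* and *Gli2* had 10 of 14 and 10 of 16, and the nuclear factor I genes *Nfib* and *Nfia* had 10 of 32 and 9 of 22. Genes of TGF-beta, PDGF, FGF and IGF signalling had 80 of 168 (47.6%, 40.2 to 55.1%), led by the coreceptor *Tgfbr3* with 15 of 34, *Fgfr1* with 9 of 13, *Pdgfrb* with 8 of 10 and *Tgfbr2* with 8 of 16. Axon guidance genes stood at the level of all genes, with 108 of 345 (31.3%, 26.6 to 36.4%). Within that family, the semaphorin genes *Sema5a* (11 of 12), *Sema6a* (8 of 17) and *Sema6d* (7 of 16) and the ephrin receptor gene *Ephb2* (6 of 14) had the most.

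Fibroblast genes also stood highest among larger lists. The study's single-cell lists, made from published cells and not from these libraries, gave 832 of 1434 (58.0%, 55.4 to 60.5%) for fibroblast genes, 238 of 1013 (23.5%, 21 to 26.2%) for endothelial genes, 143 of 694 (20.6%, 17.8 to 23.8%) for cardiomyocyte genes and 854 of 2695 (31.7%, 30.0 to 33.5%) for genes of no one type. Within every area class the fibroblast share exceeded that of all other genes, by 22.7, 30.6, 30.2 and 25.6 points from class 1 to class 4. The cardiomyocyte share was lower than that of other genes by 5.81, 13.1, 15 and 6.91 points, where the first difference had an interval (-13.2 to 1.43) that included 0. Peaks of fibroblast genes made up 5.07% of all GFP- only distal peaks and 1.85% of shared distal peaks, so most GFP- only distal peaks lay near genes of none of these larger lists.

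GFP- only distal peaks lay next to each other. Where a distal GFP- peak had another within 10000 bp, the nearest one was GFP- only for 47.5% of GFP- only peaks (46.5 to 48.4%) and for 27.5% of shared peaks (26.9 to 28.1%), a difference of 19.99 points (18.9 to 21.1). Close neighbours were equally common in both classes, at 69.9% and 69.7%. Within area classes the difference grew from 17.3 points (15.4 to 19.3) for the smallest peaks to 21.7, 29.3 and 32.9 points (28.7 to 37.0) for the largest. The difference was thus present in every area class.

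Runs of at least 3 GFP- only distal peaks with steps of at most 10000 bp numbered 902 and held 20.24% of them. No GFP+ peak lay within the span of 509 of these clusters (56.43%). Among the clusters with most peaks, one of 10 at *Spon2*, a secreted spondin, on chromosome 5 (33214860 to 33247691) held 1 GFP+ peak, and one of 10 at *Arhgap10* held 3. The cluster of 10 at *Scara5* on chromosome 14 (65691341 to 65726487) held no GFP+ peak. A cluster of 9 lay near *1700012B07Rik* and *Abca8b*, a lipid transporter. Of clusters with no GFP+ peak, *Icosl*, *Pdgfrb*, *Errfi1* and *Dtx4* had 8 peaks each, and *Col6a2*, *Col3a1* and *Itpr1* had 7.

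Of 31 motif words counted on both strands in the windows of 100 bases to either side of the summit, 11 were held by a higher share of GFP- only than of shared distal peaks and 10 by a lower share, with intervals of the difference that excluded 0. In all 4 area classes 5 words were higher and 6 were lower. Flanks, windows of the same length centred 1000 bp to either side of the summits of GFP- only distal peaks, give the share of the sequence around these, and no flanks of the other classes were counted. A match describes letters and is not a shown binding site.

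**Figure D2:**
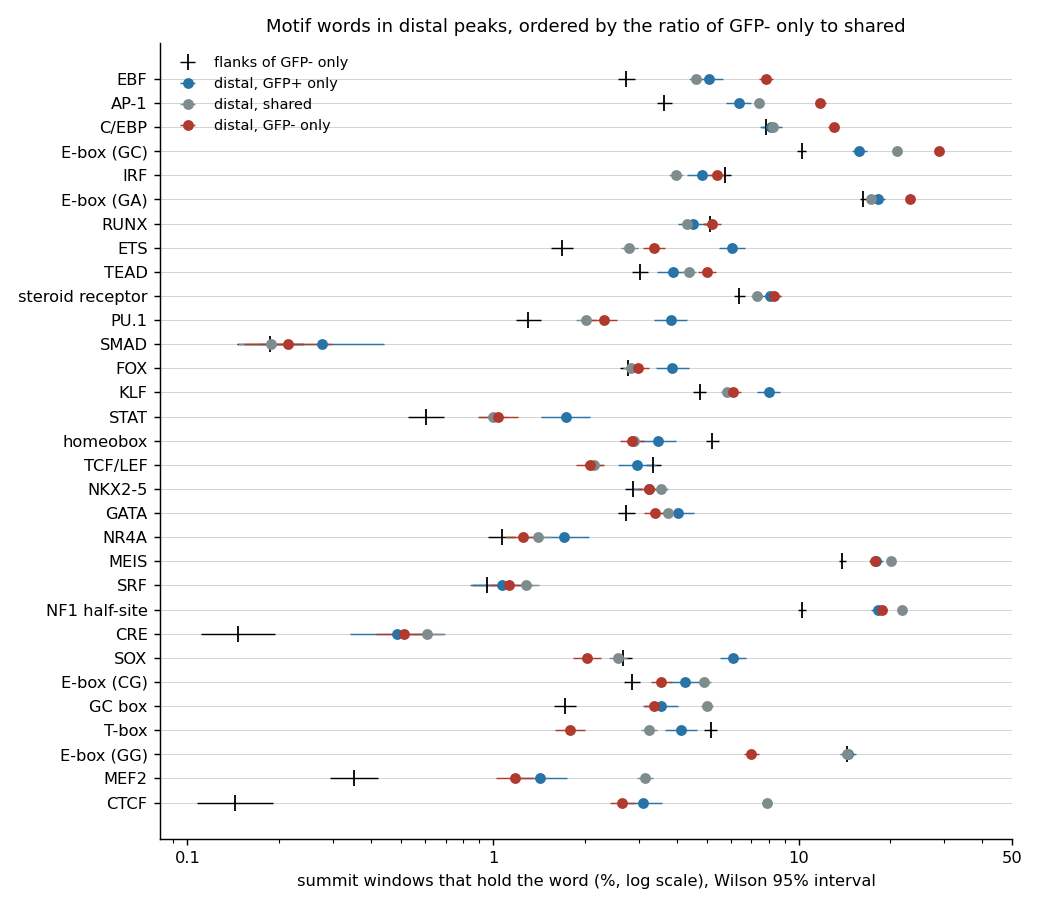
Share of summit windows that hold each of 31 motif words (x axis, %, log scale) for GFP- only, shared and GFP+ only distal peaks and for flanks of the GFP- only peaks, with Wilson 95% intervals. E-boxes are named by their central bases. Words are ordered from EBF, 7.83% against 4.60% in shared peaks, at the top to CTCF, 2.65% against 7.90%, at the bottom.

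Among GFP- only distal peaks, the E-box CAGCTG was the most frequent of the 31 words. It was in 28.7% of GFP- only distal peaks (28.1 to 29.4%), 21% of shared (20.6 to 21.5%), 15.8% of GFP+ only distal peaks (14.9 to 16.7%) and 10.2% of flanks. Its share increased with area, from 24.0% of GFP- only peaks in area class 1 through 29.5% and 36.6% to 47.9% in class 4, while in shared peaks it went from 16.1% to 26.4%. The *Ccng2* window above holds this word at a pair of places 10 bases apart. Around summits, it occurred 230 times per 100000 bp within 20 bp and 55.2 times at 400 to 500 bp, a ratio of 4.18, against 2.64 in shared peaks.

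E-boxes of different centres went in opposite directions. CAGATG was in 23.1% of GFP- only (22.5 to 23.8%), 17.2% of shared, 18.2% of GFP+ only distal peaks and 16.3% of flanks, where flanks are those of the GFP- only peaks. CAGGTG was in 7.0% of GFP- only peaks (6.62 to 7.40%) against 14.4% of shared (14.0 to 14.8%), 14.5% of GFP+ only and 14.4% of flanks. GFP- only distal peaks thus held CAGGTG less often than the sequence beside them, and the share was 9.04%, 6.07%, 3.38% and 3.67% from area class 1 to class 4. CACGTG was in 3.56% against 4.91% of shared peaks. Over all 10 E-boxes CANNTG, a set counted after these values were seen, the 6 others had ratios of GFP- only to shared share between 0.94 and 1.14. CAGGTG overlaps the T-box word AGGTGTG, which was in 1.79% against 3.24%. CAGGTG without the T-box word was in 6.44% of GFP- only and 13.2% of shared windows.

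**Figure D3:**
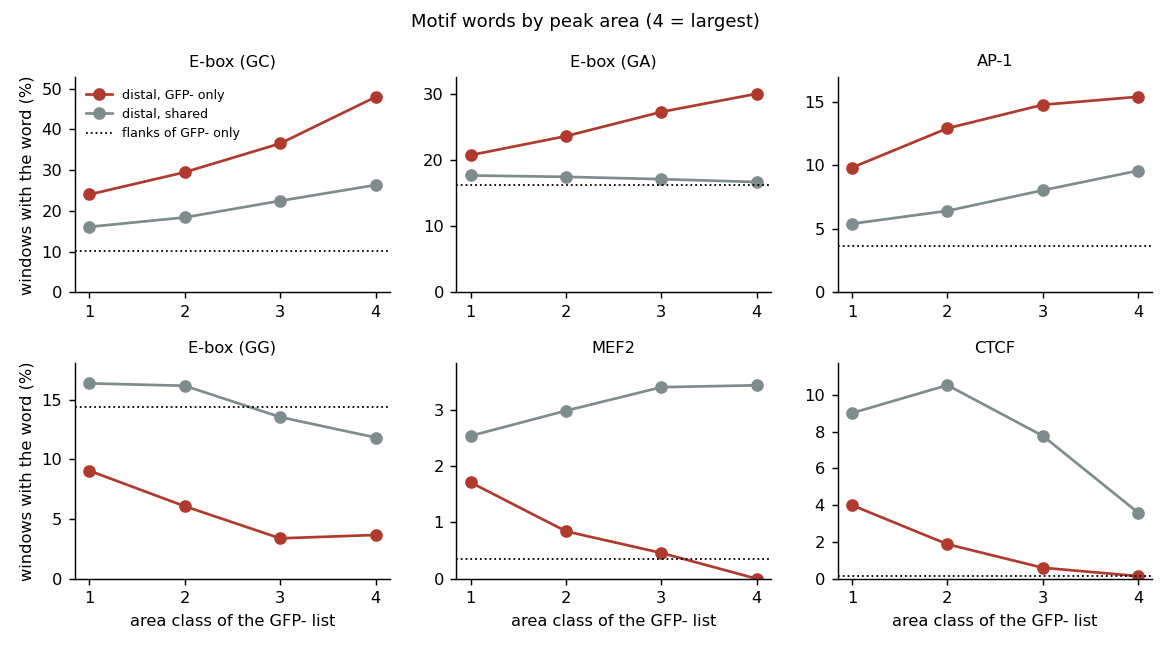
Share of summit windows with a motif word (y axis, %) by area class of the GFP- list (x axis, 4 is the largest) for GFP- only (red) and shared (grey) distal peaks, with the share in flanks as a dotted line. E-boxes are named by their central bases. CAGCTG reaches 47.9% in the largest GFP- only peaks while CAGGTG, MEF2 and CTCF lie below the shared peaks in each class.

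AP-1, EBF and C/EBP words were more frequent in GFP- only distal peaks as well. TGAGTCA (AP-1) was in 11.8% (11.3 to 12.3%) against 7.44% of shared, 6.37% of GFP+ only and 3.64% of flanks. CCCNNGGGA (EBF) was in 7.83% (7.43 to 8.26%) against 4.60%, 5.09% and 2.73%. TTGCNNAA (C/EBP) was in 13% (12.5 to 13.5%) against 8.23%, 8.14% and 7.85%. All 3 differences from shared peaks held in every area class, and in class 4 AP-1 reached 15.4% against 9.58% and EBF 11.4% against 6.30%. Near summits the EBF word was 3.92 times as dense as at 400 to 500 bp, against 1.49 times in shared peaks, and AP-1 was 4.79 times as dense, against 2.74.

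**Figure D4:**
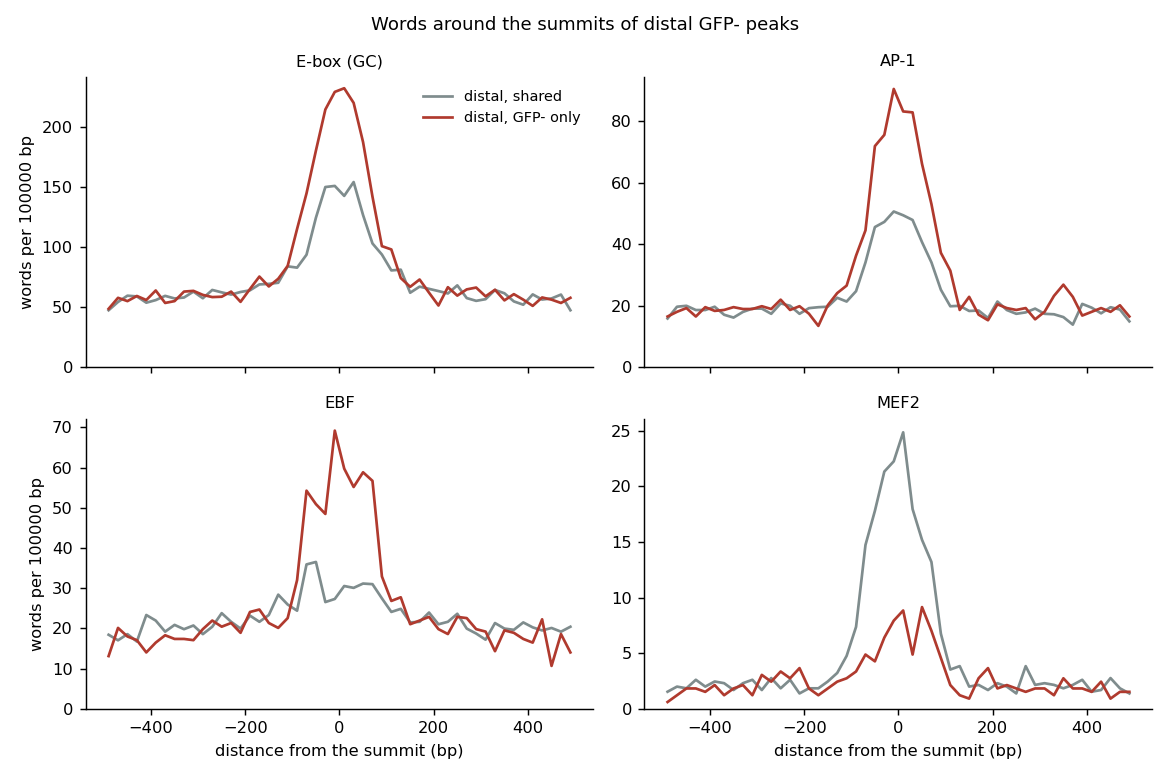
Words per 100000 bp (y axis) by distance from the summit (x axis, bp, bins of 20 bp) for GFP- only (red) and shared (grey) distal peaks. The E-box with the centre GC, AP-1 and EBF peak higher in GFP- only peaks, with that E-box at 230 against 147 within 20 bp, and MEF2 peaks higher in shared peaks.

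Pairs of words were set against the product of their shares. Of 15 pairs of 6 words, 10 had the product inside the interval of the share that held both, 4 were found together less often and 1 more often. CAGCTG and AP-1 were both present in 3.27% of GFP- only windows (3.01 to 3.56%), where the product of their shares is 3.39%, and CAGCTG and EBF in 2.31% (2.09 to 2.55%), where it is 2.25%. The *Errfi1* and *Medag* windows above are examples of these pairs.

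MEF2 and CTCF words were less frequent than in shared peaks, in GFP- only and in GFP+ only distal peaks alike. The MEF2 word was in 1.18% of GFP- only peaks (1.02 to 1.35%), 3.14% of shared (2.95 to 3.33%) and 1.42% of GFP+ only distal peaks, against 0.351% of flanks. Near summits of GFP- only peaks it was 5.61 times as dense as at 400 to 500 bp, against 12.28 times in shared peaks. Among the 682 GFP- only peaks of area class 4 it was found in 0 windows. A limit of 3 counts over these windows, used here in place of a Wilson interval, allows a share of up to 0.44%, for counting error only. The CTCF word was in 2.65% (2.42 to 2.91%) against 7.90% (7.61 to 8.20%) of shared peaks, and in 3.10% of GFP+ only distal peaks. Among GFP- only peaks it was in 4.0% in area class 1 and 0.147% in class 4. Its share in GFP- only peaks still exceeded the 0.143% of flanks overall. The NF1 half-site TTGGCA (18.8% against 21.8%) and the MEIS word TGACAG (17.8% against 20.1%) were also lower than in shared peaks in each area class. In GFP+ only distal peaks these words were in 18.3% and 17.9%, so neither low share was particular to GFP- only peaks. For SRF, another muscle factor, the shares were 1.13% and 1.29%, with an interval of the difference that included 0.

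Words of ETS and SOX factors, which act in endothelium, were most frequent in GFP+ only distal peaks. The ETS word CAGGAAGT was in 3.36% of GFP- only, 2.80% of shared and 6.04% of GFP+ only distal peaks, and the SOX word CCATTGT in 2.04%, 2.57% and 6.11%. The PU.1 word GAGGAAGT, which shares its last 7 letters with the ETS word, was in 2.31%, 2.02% and 3.81%. The GATA word was in 3.38% and 3.75% of GFP- only and shared peaks. TEAD (GGAATGT) was slightly higher, in 5.03% against 4.38%. RUNX (TGTGGTT) and IRF (AANTGAAA) were higher than in shared peaks, at 5.21% against 4.33% and 5.43% against 3.97%, but not above their flanks, at 5.15% and 5.77%.

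Without a word list, the 10 7-base words with the highest ratio of GFP- only to shared share were led by AACATCT, in 4.68% against 2.41% of windows (ratio 1.94). ACATCTG (7.64% against 4.21%, ratio 1.81), ACAGCTG (15.8% against 9.14%, ratio 1.73) and ATGAGTC (5.01% against 2.91%, ratio 1.72) contain parts of CAGATG on the other strand, CAGCTG and AP-1. AAAAATT and AAATTTC were rich in A and T and were less frequent than in flanks. The other 4 all held a CG pair, were each in at most 0.402% of windows and rested on 10 to 66 windows. Of 8192 words, 69 had a ratio above 1.5 and 647 a ratio under the inverse of 1.5, and those with the lowest ratios were rich in CG.

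Among themselves, GFP- only distal peaks differed by their nearest genes. Those near single-cell fibroblast genes held CAGCTG in 32.9% against 28.5% of the others (difference 4.42 points, 1.23 to 7.76) and CAGGTG in 4.45% against 7.14%. Those near single-cell cardiomyocyte genes, 143 in number, went the other way, with CAGGTG in 15.4% against 6.93% (difference 8.46 points, 3.44 to 15.3), EBF in 2.80% against 7.88% and C/EBP in 6.99% against 13.1%. Near genes of the pericyte list EBF was in 7 of 28 windows (25%, 12.7 to 43.4%), that of *Notch3* printed above among them, against 7.81% of the other GFP- only distal peaks. The 28 windows came from 7 genes, with 8 at *Pdgfrb*, so the interval, which treats them as independent, is too narrow. This list and word are 1 pair out of many, and no test was made. In clusters, CAGCTG was in 31.2% against 28.1% outside them and CTCF in 1.14% against 3.03%. The comparisons of this paragraph are not given within area classes, although CAGCTG was more frequent and CTCF less frequent in larger peaks. Of the 832 GFP- only distal peaks near single-cell fibroblast genes, 97 were in area class 4, against 682 of all 16402. The part of area in these differences was not tested.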

How the data were processed

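ATAC-Seq was made on sorted GFP- and GFP+ heart nuclei. Per the paper's methods, the authors cleaned the reads with fastp, aligned them to mm10 by bowtie2, filtered on mapping quality, took out duplicates, brought libraries to an equal number of reads and used both replicates of a population for 1 Genrich call. The submitters' processing notes list Bowtie2 2.3.5.1, Picard and Genrich. In the deposited lists, area is the authors' signal over the whole peak, score is a scaled form of area that entered no result, and the -log10 p-value refers to the summit. Read counts and separate replicates were not analysed here, so the number of reads behind each peak is unknown and no test was made. Equal read numbers do not even out how strongly reads concentrate in peaks.

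Transcript starts and exons came from GENCODE M21 and sequence from GRCm38.p6. Peaks were compared in Python 3.11.15 with pandas 2.3.3 and pysam 0.24.0. Shares have Wilson, differences Newcombe and medians order-statistic 95% intervals. Steps were tested on simulated data. The peak class, gene lists and words were chosen with earlier results of these data known. Named were the 15 genes with most such peaks, the 10 largest peaks, the 5 largest clusters and 4 genes per list, the largest peak per cell type list (for printed windows, outside chromosome 18) and 10 7-base words, except that 1 cluster and 1 gene are not reported here. Other genes were named after their values were seen. Alternatives changed the overlap, the threshold on area, the kind of transcript start, the window and the neighbour distance.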

Additional observations from a re-analysis of the deposited data

How the results depend on the processing

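No paired analysis was possible because each population has 1 peak list called from both replicates, and for the same reason no replicate could be left out. Requiring 50% of both peaks to overlap gave a GFP- only share of 43.3% of distal GFP- peaks, 59.1% in introns (against 58.7% of shared peaks, a difference of 0.36 points, -0.52 to 1.24), a GFP- only neighbour for 54.3%, 4.59% near single-cell fibroblast genes, CAGCTG in 27.3% and AP-1 in 10.9%. Requiring no GFP+ peak within 1000 bp gave 28.6%, 57% in introns and a GFP- only neighbour for 52.0%. Above rank 50 by area the values were 16.7%, 53.0%, 39.3% for neighbours, 8.67% near fibroblast genes, 38.8% for CAGCTG and 14.9% for AP-1. Starts of all genes gave 34.0% of distal peaks. In windows of 50 and 200 bp to either side CAGCTG was in 19.0% and 37.9% and AP-1 in 7.37% and 15.3%. Of 30 alternatives, 10 stayed within the interval of the reported value. Of 26 differences from shared peaks, 25 kept their sign, the exception being the intron share above. The cause of these shifts was not tested. Small peaks are a larger share of GFP- only than of shared peaks, and how much of the class reflects the threshold of the GFP+ list cannot be told apart from absence in GFP+ nuclei without read counts.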

Other observations

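Intergenic GFP- only distal peaks differed a little from the others in their words. The CTCF word was in 3.56% of intergenic against 2.12% of other GFP- only distal peaks (difference 1.44 points, 0.91 to 2.01), and the EBF word in 8.56% against 7.41% (difference 1.14 points, 0.28 to 2.02). The GC box GGGCGGG was in 6.45% of GFP- only peaks of area class 4 and in 3.24% of the rest, while the homeobox word TAATTA was in 1.03% and 2.93%. Neither direction was particular to GFP- only peaks. In shared distal peaks the GC box went from 2.87% in class 1 to 9.99% in class 4, and TAATTA from 3.58% to 2.12%. Summits in repeat-masked bases made up 8.26% of GFP- only, 6.98% of shared and 9.32% of GFP+ only distal peaks. *Kcnip1*, a potassium channel interacting protein, and *Pde1a*, a phosphodiesterase, had 11 and 10 distal GFP- peaks, all GFP- only, and a promoter peak in neither list.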
